A study of Mus musculus with 4 samples.

Results

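Genes for chemokine ligands, the small secreted proteins that guide leukocytes along a gradient, were followed in microglia of the early postnatal white matter. They were taken by gene name from the deposited expression table (Ccl2, Ccl3, Ccl4, Ccl5, Ccl6, Ccl7, Ccl12, Cxcl2, Cxcl10 and Cxcl16), and all 10 were found among its 21044 genes. Microglia, the resident macrophages of the brain, had been taken out of the corpus callosum, a large white matter tract, on postnatal day 7. There were 2 libraries of Lag3cKO-Cx3 mice (cKO), in which floxed Lag3, encoding an inhibitory immune receptor, is deleted, and 2 libraries of Lag3fl/fl mice (WT), which carry the floxed alleles and have the genotype label wt. The line name gives the driver of the deletion only as Cx3, read here as Cx3cr1, a gene that monocytes and border macrophages use besides microglia. How the cells were isolated, and whether a library is 1 pup or a pool, is not stated, so any p-value reflects the spread of these libraries alone, which may be technical. The comparison of cKO with WT asks which transcripts differ in white matter microglia that lose Lag3. No driver is named for WT, so the presence of the driver and the loss of Lag3 cannot be told apart.

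Chemokines are grouped by the spacing of their first cysteines into CC (Ccl) and CXC (Cxcl) ligands, and they act through G-protein-coupled receptors on the target cell. Ccl2, Ccl7 and Ccl12 recruit monocytes through Ccr2, whereas Ccl3, Ccl4 and Ccl5 attract monocytes and T cells, Ccl3 and Ccl5 in part through Ccr1. Ccl6 is a rodent CC chemokine that binds Ccr1. Among the CXC ligands, Cxcl2 draws neutrophils through Cxcr2, Cxcl10 is an interferon-induced ligand of Cxcr3, and Cxcl16 is made as a membrane protein and binds Cxcr6. Microglia are a known source of several of these ligands in injury and inflammation, and their transcription is classically driven by NF-kB, AP-1 and, for Cxcl10, interferon signalling.

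The sequences before 4 of the genes are shown because these genes mark the ends of the range described further on, Cxcl10 and Ccl12 with the widest differences between libraries and Ccl3 and Ccl6 with the highest levels and narrow differences. RefSeq promoter sequences (GRCm38.p6) matched 5 of the 10 genes, and the 250 bases before the annotated start are printed 5′ to 3′ for 4 of them, with motif matches in capitals.
Cxcl10 promoter, chr5:92348890-92349139 (minus strand): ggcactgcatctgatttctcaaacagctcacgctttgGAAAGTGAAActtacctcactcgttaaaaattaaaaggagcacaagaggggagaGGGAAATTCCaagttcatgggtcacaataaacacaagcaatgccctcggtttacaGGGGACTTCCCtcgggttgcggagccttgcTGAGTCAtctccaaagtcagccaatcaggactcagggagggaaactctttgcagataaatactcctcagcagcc
Ccl12 promoter, chr11:82101595-82101844 (plus strand): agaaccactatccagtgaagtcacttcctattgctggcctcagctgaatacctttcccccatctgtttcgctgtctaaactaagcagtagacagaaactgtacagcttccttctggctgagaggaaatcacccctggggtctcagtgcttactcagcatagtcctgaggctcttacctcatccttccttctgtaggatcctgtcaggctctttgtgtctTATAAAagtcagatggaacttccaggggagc
Ccl3 promoter, chr11:83649379-83649628 (minus strand): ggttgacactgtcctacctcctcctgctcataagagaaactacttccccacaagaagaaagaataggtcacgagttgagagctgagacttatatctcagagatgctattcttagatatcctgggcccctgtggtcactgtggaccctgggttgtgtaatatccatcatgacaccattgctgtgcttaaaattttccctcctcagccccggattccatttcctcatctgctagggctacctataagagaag
Ccl6 promoter, chr11:83593088-83593337 (minus strand): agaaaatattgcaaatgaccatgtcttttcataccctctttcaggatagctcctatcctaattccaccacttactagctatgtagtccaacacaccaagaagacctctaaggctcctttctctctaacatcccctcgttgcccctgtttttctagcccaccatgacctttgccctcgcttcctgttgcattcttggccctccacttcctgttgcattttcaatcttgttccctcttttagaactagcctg
A kappaB-like motif was searched as GGG followed, after 5 bases of any kind, by a pair of C. Cxcl10 held it as GGGAAATTCC from base 159 to base 150 before the start and as overlapping matches between bases 104 and 94. A motif like the interferon-stimulated response element was searched as GAAA repeated after 2 bases of any kind, and Cxcl10 held it as GAAAGTGAAA from base 213 to 204. An AP-1-like motif was searched as TGA followed, after 1 base of any kind, by its reverse complement, and Cxcl10 held it as TGAGTCA from base 74 to 68. A TATA box was searched as TATAAA, and Ccl12 held it from base 31 to 26. The TATA box was searched on the coding strand and the other motifs on both strands, and Ccl3 and Ccl6 had no match to any of the 4 in this window. Over all 32817 promoters of the same length, the interferon response motif was found in 2.97%, the AP-1-like motif in 6.75%, the TATA box in 7.60% and the kappaB-like motif in 45.8%. Cxcl2, matched but not printed, held 3 kappaB-like matches and had 0 counts in both cKO libraries and in WT replicate 1. Since the 4 printed genes were chosen by their values, their motifs cannot be set against the differences between libraries. A match describes the letters only, and binding was not measured.

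Of the genes, 8 lie on chromosome 11, 7 of them in arrays of related genes (GRCm38, matched to GENCODE M21, all protein coding). Ccl2 (ENSMUSG00000035385, 82035571 to 82037453), Ccl7 (ENSMUSG00000035373, 82045712 to 82047525) and Ccl12 (ENSMUSG00000035352, 82101845 to 82103400) follow each other on the plus strand, with 8258 bases between Ccl2 and Ccl7 and 54319 bases between Ccl7 and Ccl12. Ccl5 (ENSMUSG00000035042, 83525778 to 83530518), Ccl6 (ENSMUSG00000018927, 83587882 to 83593087) and Ccl3 (ENSMUSG00000000982, 83647844 to 83649355) lie on the minus strand of a second array, and Ccl4 (ENSMUSG00000018930, 83662584 to 83664683) on its plus strand, 13228 bases from Ccl3. Cxcl16 (ENSMUSG00000018920, 70453983 to 70459984, minus strand) lies apart on the same chromosome. Chromosome 5 holds Cxcl2 (ENSMUSG00000058427, 90903871 to 90905938, plus strand) and Cxcl10 (ENSMUSG00000034855, 92346638 to 92348889, minus strand). The CC genes shared no stretch of 50 bases with any other annotated transcript. Cxcl2 shared such stretches with Cxcl3, and exons of Cxcl10 and Cxcl16 overlap Art3 and Zmynd15 on the opposite strand. The strand setting of the counting is not given, so reads of such pairs cannot be told apart. Art3 had 0 and 0 counts in cKO and 13 and 0 in WT, and Zmynd15 had 44 and 0 in cKO and 0 and 25 in WT. These counts do not show how far the overlaps affect Cxcl10 and Cxcl16.

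Libraries held 16770162 and 14645187 counts in cKO replicates 1 and 2, and 15855913 and 14973059 in WT. Lag3 was lower in both cKO libraries, at 35.4 and 17.1 CPM (counts scaled to a common library size) against 386.7 and 683.0 CPM in WT. The second cKO library stood apart. It detected 12787 genes against 14840 to 15899 in the other 3, and between the cKO libraries the median absolute log2 difference over the 13086 genes tested was 0.76, against 0.36 between the WT libraries. It also had 0 counts of the Y-linked Ddx3y and 290.4 CPM of Xist, where cKO replicate 1 had 106.9 and 6.97 CPM and the WT libraries 94.7 and 89.1 CPM of Ddx3y and 0 counts of Xist, so that the groups are not matched for sex-linked transcripts. Fitted differences of the ligands are therefore given with and without this library. In bulk RNA, fewer cells of a type and less RNA per cell cannot be told apart.

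Transcripts of the 10 listed ligands were abundant in both groups, and 2 genes made most of their summed FPKM. Summed over the 10 ligands, the level per gene length was 2051 and 3053 FPKM in cKO and 1950.5 and 2090.1 FPKM in WT. Ccl3 was the highest ligand in each of the 4 libraries, at 924.1 and 1015 FPKM in cKO and 882.3 and 973.0 FPKM in WT. Its place among all genes by FPKM was 38 and 33 in cKO and 36 and 36 in WT. Ccl6 was at 612.9 and 567.0 FPKM in cKO and at 686.2 and 727.6 FPKM in WT. Together these 2 genes gave most of the summed ligand FPKM in each library, 45.1% and 33.2% from Ccl3 and 29.9% and 18.6% from Ccl6 in cKO, against 45.2% and 46.6% from Ccl3 and 35.2% and 34.8% from Ccl6 in WT. The smaller shares of Ccl3 and Ccl6 in cKO replicate 2 stood beside larger shares of Ccl2 and Ccl12 there.

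**Figure D1:**
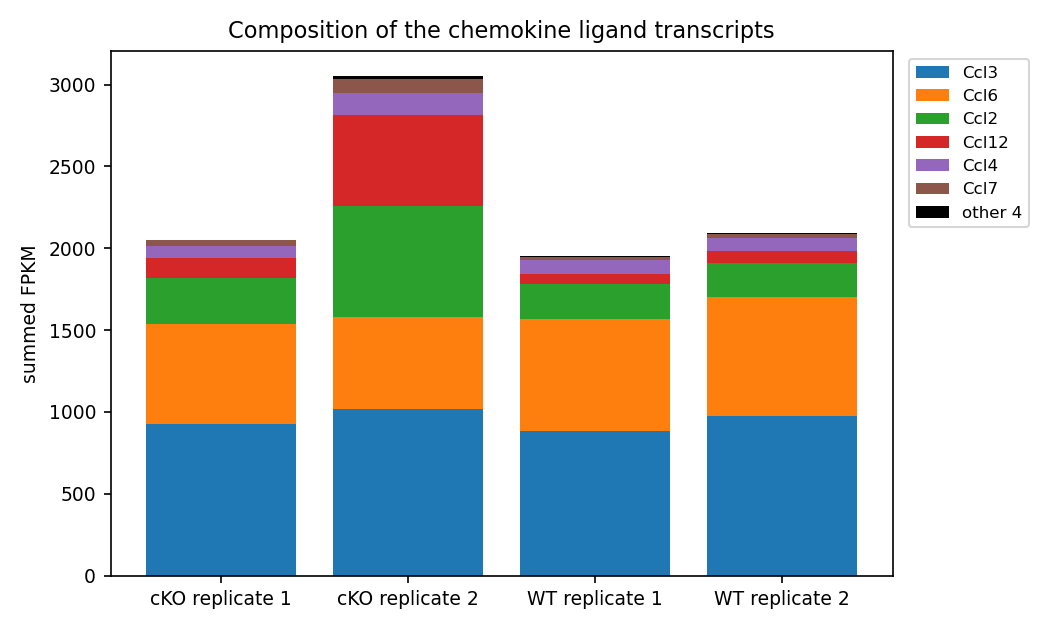
Summed FPKM of the chemokine ligands in each library, with the 6 highest genes as coloured parts of the bar and the other 4 in black. The bar of cKO replicate 2 reaches 3053 FPKM, and most of the added height lies in Ccl2 and Ccl12, while Ccl3 has nearly the same height in all 4 bars.

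In WT the 8 ligands detected in each library stood in 1 order of level, Ccl3, Ccl6, Ccl2, Ccl4, Ccl12, Ccl7, Cxcl16 and Cxcl10, with no overlap between neighbours over the WT libraries. Ccl4 was at 79.9 and 83.2 FPKM and Ccl12 at 66.2 and 74.5 FPKM in WT, whereas in cKO Ccl12 was above Ccl4 in both libraries, at 121.5 and 560.3 FPKM against 72.5 and 129.5 FPKM. Both cKO libraries had Ccl2, Ccl12, Ccl4 and Ccl7 in this descending order, although the ranges of neighbours over the 2 libraries overlapped. Ccl6 and Ccl2, and Cxcl16 and Cxcl10, changed places between the cKO libraries. Ccl5 and Cxcl2 were listed at 0 FPKM in both cKO libraries and in WT replicate 1.

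The ligands of Ccr2 were fitted higher in cKO, and for each of the 3 the cKO values lay above the WT values. The same held for 15.8% of all genes tested. None of the 3 ligands passed the edgeR quasi-likelihood test over all genes. Ccl2, a main attractant of monocytes, had 5382 and 11233 counts in cKO and 3797 and 3532 counts in WT, or 320.5 and 748.9 CPM against 242.2 and 241.1 CPM. The WT libraries were nearly equal, and the cKO libraries were 1.33 and 3.10 times their mean. The fitted log2 fold change was 1.15 with a standard error of 0.43 (edgeR adjusted p = 0.9997), and it was 0.41 without cKO replicate 2.

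Ccl7, a monocyte attractant encoded next to Ccl2, had 482 and 1058 counts in cKO and 295 and 260 counts in WT, or 28.7 and 70.5 CPM against 18.8 and 17.7 CPM. The groups did not overlap, and the cKO libraries were 1.57 and 3.86 times the WT mean. Its log2 fold change was 1.44 with a standard error of 0.53, and 0.65 without cKO replicate 2.

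Ccl12, a mouse ligand of Ccr2 related to Ccl2, had 1094 and 4407 counts in cKO and 564 and 599 counts in WT, or 65.1 and 293.8 CPM against 36.0 and 40.9 CPM. Again the groups did not overlap, and the cKO libraries were 1.70 and 7.65 times the WT mean. The log2 fold change was 2.22 with a standard error of 0.74, and 0.76 without cKO replicate 2. Its place among all genes by FPKM was 361 and 64 in cKO and 716 and 634 in WT. DESeq2 gave Ccl12 an adjusted p = 0.062 and limma, over 4 settings, an adjusted p = 0.80 to 0.88, and neither called it. Over all 15 alternatives the adjusted p ran between 0.029, without cKO replicate 1, and 1.0, with a replicate block.

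The 3 genes of this array did not differ by the same factor. Per gene length, Ccl2 was 7.86 and 7.47 times Ccl7 in cKO and 9.06 and 9.56 times in WT. Ccl2 was 2.32 and 1.20 times Ccl12 in cKO and 3.18 and 2.78 times in WT. Between the cKO libraries, replicate 2 exceeded replicate 1 by 2.34-fold for Ccl2, 2.46-fold for Ccl7 and 4.51-fold for Ccl12, while the WT libraries differed by 0.996-fold, 0.943-fold and 1.14-fold (replicate 2 over replicate 1). For each of the 3 genes the cKO libraries were farther from each other than cKO replicate 1 was from the WT mean.

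**Figure D2:**
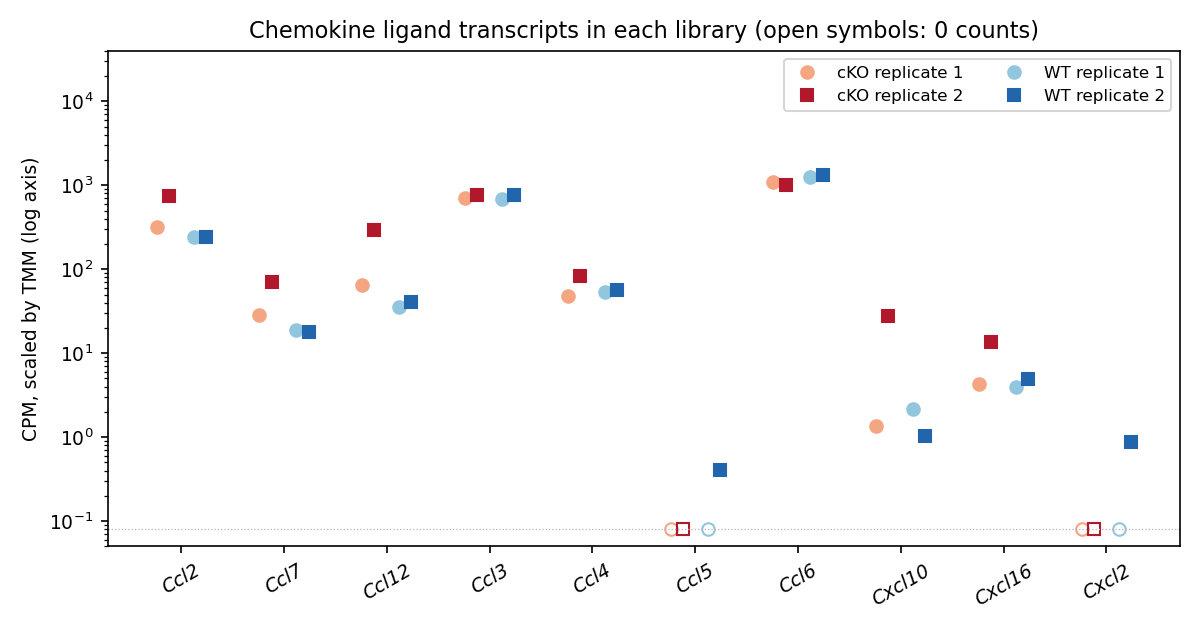
CPM scaled by TMM (log axis) of each chemokine ligand in the cKO libraries and the WT libraries, with 1 symbol per library and open symbols on the dotted line for 0 counts. The cKO libraries lie above the WT libraries for Ccl2, Ccl7 and Ccl12 and below them for Ccl6, and cKO replicate 2 stands alone for Cxcl10 and Cxcl16. Heights of different genes are not comparable, since CPM is not divided by gene length.

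Ccl3 and Ccl4 showed no such separation. Ccl3, known as MIP-1 alpha, had 707.0 and 759.3 CPM in cKO and 683.5 and 761.8 CPM in WT, from 10717 to 11872 counts per library. The groups overlapped, and the log2 fold change was 0.02 with a standard error of 0.15, and -0.032 without cKO replicate 2. Ccl4, or MIP-1 beta, had 803 and 1252 counts in cKO and 836 and 822 counts in WT, or 47.8 and 83.5 CPM against 53.3 and 56.1 CPM. Only cKO replicate 2 was above WT, and cKO replicate 1 was below both WT libraries. The log2 fold change of Ccl4 was 0.26 with a standard error of 0.35, and it was -0.19 without cKO replicate 2. As neighbours on the chromosome, Ccl3 was 12.7 and 7.84 times Ccl4 per gene length in cKO and 11.05 and 11.7 times in WT.

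Ccl5, also called RANTES and typical of activated lymphocytes, had 0 counts in both cKO libraries and in WT replicate 1, and 6 counts in WT replicate 2, with an exact Poisson 95% interval of 2.202 to 13.1. For a count of 0 the same interval has an upper limit of 3.69 counts. The separate floor of 3 counts used here is 0.179 and 0.200 CPM in the cKO libraries and 0.191 CPM in WT replicate 1. The gene did not reach the minimum for the test and was not detectable as different at this depth.

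Ccl6, a CC chemokine of macrophages and the ligand with the second highest mean FPKM in each group, was lower in both cKO libraries than in both WT libraries. It had 18452 and 14905 counts in cKO and 19531 and 19559 counts in WT, or 1099 and 993.8 CPM against 1246 and 1335 CPM. The cKO libraries were 0.852 and 0.770 times the WT mean, a narrow difference at high depth. The log2 fold change was -0.30 with a standard error of 0.14 (edgeR adjusted p = 0.9997), and -0.23 without cKO replicate 2. Its direction was the same under each of the 15 alternatives run.

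Of the CXC ligands, Cxcl10 and Cxcl16 were high in cKO replicate 2 alone. Cxcl10, which attracts T cells and NK cells, had 23 and 417 counts in cKO and 34 and 15 counts in WT, or 1.37 and 27.8 CPM against 2.17 and 1.02 CPM. The exact Poisson 95% intervals, which cover counting error only, were 14.6 to 34.5 and 378 to 459 counts in cKO and 23.5 to 47.5 and 8.40 to 24.7 counts in WT. The first cKO library thus lay between the WT libraries, and the second was 20.3-fold above the first. The log2 fold change of 3.18 had a standard error of 1.56, and without cKO replicate 2 it was -0.22.

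Cxcl16, which serves both as an adhesion molecule and, once shed, as an attractant, had 73 and 206 counts in cKO and 62 and 73 counts in WT, or 4.35 and 13.7 CPM against 3.95 and 4.98 CPM. The first cKO library again lay between the WT libraries, and the second was 3.16-fold above the first. The log2 fold change was 1.02 with a standard error of 0.90, and -0.04 without cKO replicate 2. Cxcl2, a neutrophil attractant, had 0 counts in both cKO libraries and in WT replicate 1, and 13 counts in WT replicate 2 with an exact Poisson 95% interval of 6.92 to 22.2. Since 1 WT library was also at 0, no difference between the groups can be read for Cxcl2.

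Counted over the list, 8 of the 10 ligands passed the filter on low counts, each with at least 15 counts in every library, and Ccl5 and Cxcl2 did not. Of these 8, edgeR called 0 higher and 0 lower, where it called 0.0% of all 13086 genes tested in either direction. At an unadjusted p under 0.05 it had 3 higher (Ccl2, Ccl7 and Ccl12) and 0 lower, against 1.77% of all genes higher and 2.88% lower (608 genes in all). DESeq2 called 0 of the ligands, and called 0.387% of the genes it tested. At an unadjusted p under 0.05 it had 4 of the 8 ligands and 6.67% of all genes. Both cKO libraries lay above both WT libraries for 3 of the 8 ligands and below for 1, against 15.8% and 20.0% of all genes tested. The median log2 fold change was 1.08 over the 8 ligands and -0.03 over all genes tested, and it was -0.04 over the ligands without cKO replicate 2. With 2 libraries against 2, an exact two-sided permutation test cannot go below p = 0.3333.

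Ligand levels differed more between the 2 cKO libraries than between the 2 WT libraries. In cKO replicate 2, 5 of the 8 (Ccl2, Ccl7, Ccl12, Cxcl10 and Cxcl16) were at least 2-fold higher than in cKO replicate 1 and 0 at least 2-fold lower, against 15.1% and 25.8% of all genes tested. Between the WT libraries 0 of the 8 differed by 2-fold in either direction, on log2 CPM computed with prior count 2, against 10.6% and 8.96% of all genes. Without the prior count, Cxcl10 did exceed 2-fold, at 0.472-fold for WT replicate 2 over replicate 1 (15 against 34 counts). The median absolute log2 difference over the 8 was 1.26 between the cKO libraries and 0.13 between the WT libraries. Without cKO replicate 1, with the lone cKO library assumed to vary like the WT libraries, edgeR called 4 of the 8 ligands higher (Ccl2, Ccl7, Ccl12 and Cxcl10, adjusted p = 0.0290 to 0.0412), where it called 0.81% of all genes higher. Such calls describe how far that library is from WT.

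**Figure D3:**
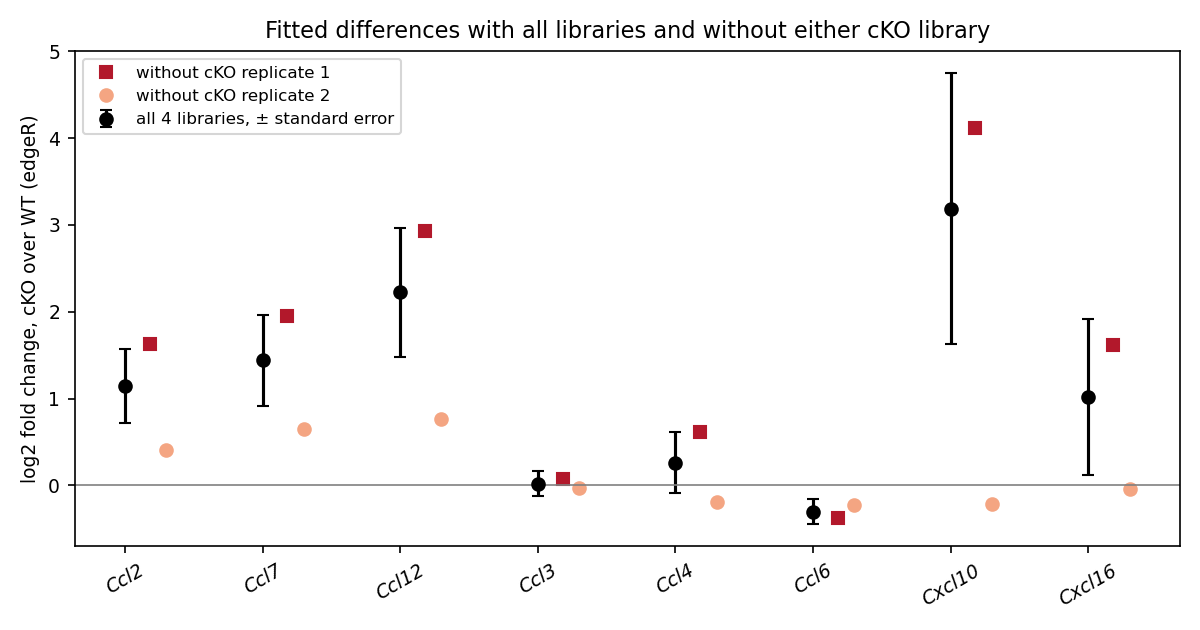
Log2 fold change of cKO over WT from edgeR for the 8 ligands tested, with all libraries (black, bars are standard errors), without cKO replicate 1 (squares) and without cKO replicate 2 (pale circles). Without cKO replicate 2 the values lie between -0.23 and 0.76, and Ccl2, Ccl7 and Ccl12 are the 3 that stay above 0.

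Receptors for these ligands were measured in the same libraries. Of the 23 chemokine receptor genes listed, 13 passed the filter, and 0 were called in either direction. The groups did not overlap for 7, with cKO above for 4 and below for 3, against 15.8% and 20.0% of all genes. The median log2 fold change was -0.12, and with 1 library left out it ran between -1.35, without cKO replicate 1, and 0.35, without cKO replicate 2. Cx3cr1, which binds fractalkine and is the driver's gene as read here, was the most abundant, at 3404 and 3034 CPM in cKO and 6443 and 6554 CPM in WT, with a log2 fold change of -1.01. Ccr1, shared by Ccl3, Ccl5 and Ccl6, was at 49.4 and 62.9 CPM in cKO and 41.8 and 35.6 CPM in WT, with a log2 fold change of 0.54. Ccrl2, a decoy-type receptor that presents chemerin, was at 39.6 and 34.6 CPM in cKO and 29.7 and 34.4 CPM in WT.

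The receptors of the remaining ligands were low, and they were chosen as partners of the ligands after their values were seen. Ccr2, which marks recruited monocytes, was at 7.50 and 13.1 CPM in cKO and 3.76 and 5.26 CPM in WT, above WT in both cKO libraries, with a log2 fold change of 1.19. Cxcr2, the receptor of Cxcl2 and a neutrophil gene, was at 10.4 and 16.8 CPM in cKO and 2.36 and 2.87 CPM in WT, with a log2 fold change of 2.38. Cxcr3, the receptor of Cxcl10, was at 4.23 and 1.60 CPM in cKO and 3.25 and 4.91 CPM in WT, and thus lowest in the library with the most Cxcl10. Cxcr6, the receptor of Cxcl16, had 28 and 0 counts in cKO and 2 and 12 counts in WT. None of these receptors passed edgeR over all genes.

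**Figure D4:**
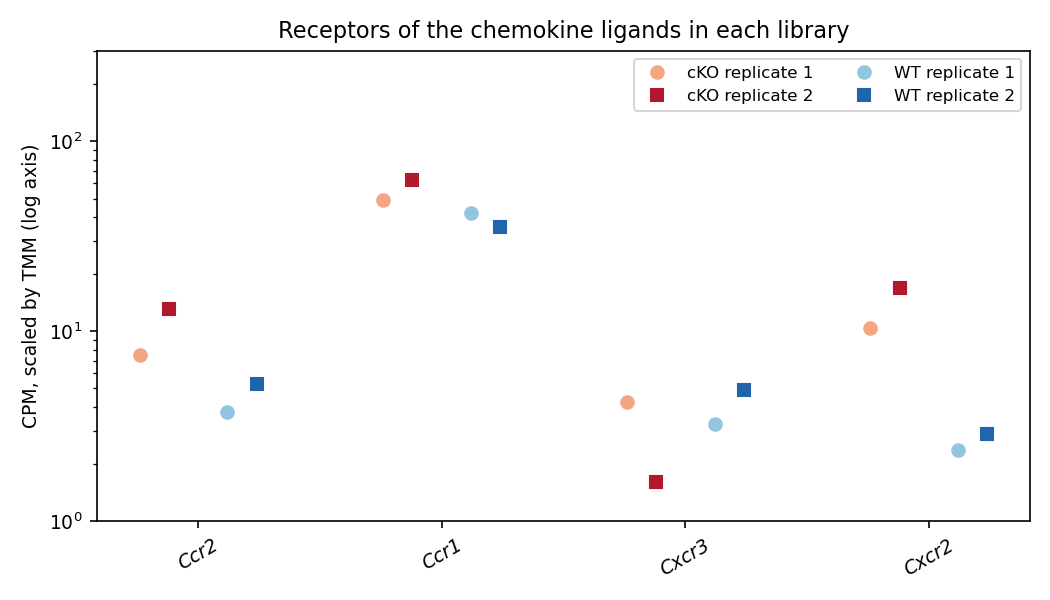
CPM scaled by TMM (log axis) of 4 receptors of the ligands in the cKO libraries and the WT libraries, 1 symbol per library. Both cKO libraries lie above both WT libraries for Ccr2, Ccr1 and Cxcr2, whereas the groups overlap for Cxcr3.

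Beyond the 10 ligands, 11 of 25 further chemokine genes were in the deposited table and 6 passed the filter, of which 0 were called, 0 lay above WT and 2 lay below WT in both cKO libraries, against 15.8% and 20.0% of all genes. Their median log2 fold change was -0.68, and with 1 library left out it ran between -0.18, without WT replicate 1, and -0.80, without cKO replicate 1. Ccl9, a CC chemokine gene beside Ccl6, was the most abundant of them, at 1031 and 665.8 CPM in cKO and 949.5 and 995.4 CPM in WT. Per gene length it was at 339.1 and 223.9 FPKM in cKO and 308.3 and 319.8 FPKM in WT. These levels are not part of the sum over the 10 ligands. Its groups overlapped. Pf4, a platelet and macrophage chemokine, was at 7.56 and 13.7 CPM in cKO and 8.48 and 4.78 CPM in WT. Cxcl12, a ligand of Cxcr4 made by stromal and vascular cells, was at 5.06 and 0.200 CPM in cKO and 8.35 and 15.5 CPM in WT. Cxcl14 was at 2.80 and 7.93 CPM in cKO and 5.80 and 3.89 CPM in WT.

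Cytokines that induce chemokines were above WT in both cKO libraries for each of the 5 of 10 listed genes that were measured, against 15.8% of all genes, although 0 passed edgeR. Their median log2 fold change was 1.52, and with 1 library left out it ran between 1.15, without cKO replicate 2, and 1.79, without WT replicate 2. Il1a, encoding interleukin-1 alpha, was at 145.2 and 219.1 CPM in cKO and 89.4 and 90.7 CPM in WT. Tnf was at 56.9 and 116.4 CPM in cKO and 18.2 and 33.2 CPM in WT, and Il18 at 19.2 and 41.7 CPM in cKO and 13.7 and 13.3 CPM in WT. As with Ccl2, the higher value in cKO was that of replicate 2 for each of these 3 genes.

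Genes listed around NF-kB, mostly its subunits, inhibitors and feedback genes but also Icam1 and Sod2, numbered 13 after the filter, and edgeR called 0. Both cKO libraries were above WT for 5 and below for 1, against 15.8% and 20.0% of all genes. The median log2 fold change was 0.31, and with 1 library left out it ran between 0.12, without WT replicate 1, and 0.44, without cKO replicate 1. Nfkbia, the inhibitor of NF-kB, was at 160.7 and 297.7 CPM in cKO and 121.6 and 147.3 CPM in WT. Nfkbid was at 217.8 and 158.7 CPM in cKO and 131.0 and 171.7 CPM in WT, and Icam1 at 158.7 and 183.6 CPM in cKO and 140.1 and 130.4 CPM in WT. Immediate early and stress genes, which also rise when tissue is dissociated, had a median of 0.36 over 19 genes, with 0 called, and with 1 library left out it ran between -0.026, without cKO replicate 2, and 0.60, without cKO replicate 1. Of the 19, 5 lay above and 2 below WT in both cKO libraries, against 15.8% and 20.0% of all genes. Egr1 was at 1386 and 2029 CPM in cKO and 1169 and 1507 CPM in WT, and Fos at 1419 and 1537 CPM in cKO and 1377 and 1534 CPM in WT. Zfp36, whose protein destabilises cytokine and chemokine transcripts, was at 1146 and 1229 CPM in cKO and 1029 and 1304 CPM in WT. The part of dissociation in the chemokine levels was not tested.

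Interferon response genes, the group to which Cxcl10 belongs by induction, were all fitted higher in cKO, 12 of the 17 above both WT libraries, against 15.8% of all genes, and 0 called. The median log2 fold change over the list was 1.73, and it was 0.81 without cKO replicate 2 and 3.43 without WT replicate 1. Summed over the list they reached 670.5 and 1966 CPM in cKO and 545.8 and 232.8 CPM in WT. Ifit2 was at 68.0 and 376.0 CPM in cKO and 79.6 and 15.4 CPM in WT, and Oasl2 at 52.9 and 265.6 CPM in cKO and 54.0 and 6.28 CPM in WT. Cxcl10 had the same order of libraries within each group, higher in replicate 2 of cKO and in replicate 1 of WT. For the interferon list, log2 differences were computed with prior count 2. Their median was 1.55 for cKO replicate 2 over replicate 1 and -1.61 for WT replicate 2 over replicate 1. Cxcl10 had 4.34 and -1.08 without a prior count, so its values are not on quite the same measure. Ccl2, Ccl7 and Ccl12 did not differ in this way between the WT libraries, with log2 differences of -0.01, -0.08 and 0.18 (replicate 2 over replicate 1).

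Markers of cells that could carry these transcripts were examined beside them, and none was called by edgeR. The counts of markers above or below WT in both cKO libraries stand against 15.8% and 20.0% of all genes. Microglial markers were high in each library, with Csf1r at 8997 and 7428 CPM in cKO and 7803 and 9026 CPM in WT, Fcrls at 5502 and 5490.0 CPM in cKO and 4982 and 5775 CPM in WT, and 0 of the 10 markers at 0 counts. Both cKO libraries were above WT for 3 of the 10 (Tmem119, P2ry12 and Aif1) and below for 1 (Sall1), named after their values were seen. Tmem119, a surface protein typical of microglia, was at 773.2 and 1172 CPM in cKO and 380.9 and 540.9 CPM in WT (log2 fold change 1.08, SE 0.29). Border macrophage markers summed to 530.8 and 543.8 CPM in cKO and 506.4 and 552.2 CPM in WT, with 2 of 9 above WT. Of these, Mrc1 was at 409.7 and 462.6 CPM in cKO and 406.2 and 472.1 CPM in WT, F13a1 at 29.9 and 23.2 CPM in cKO and 29.7 and 28.5 CPM in WT, and Cd163 and Cd209f had 0 counts in cKO replicate 2.

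Monocyte markers summed to 66.4 and 101.1 CPM in cKO and 59.2 and 45.5 CPM in WT, with 2 of 7 genes tested above WT in both cKO libraries. Plac8 was at 17.1 and 53.9 CPM in cKO and 25.3 and 5.87 CPM in WT, Itgal at 23.0 and 2.00 CPM in cKO and 16.9 and 22.8 CPM in WT, and the defining marker Ly6c2 at 0.536 and 2.47 CPM in cKO and 4.15 and 1.09 CPM in WT. Neutrophil markers summed to 267.0 and 380.4 CPM in cKO and 233.0 and 274.7 CPM in WT, with 1 of 6 genes tested above WT and 1 below WT in both cKO libraries. Csf3r made most of that sum, at 260.2 and 265.8 CPM in cKO and 202.7 and 264.9 CPM in WT, and Ngp was at 2.203 and 41.7 CPM in cKO and 0 and 0.341 CPM in WT. Ly6g had 0 and 97 counts in cKO and 0 and 0 in WT, and Elane and Mpo had 0 counts outside WT replicate 1.

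Lymphocyte markers summed to 0.536 and 7.40 CPM in cKO and 1.98 and 0.410 CPM in WT, with Cd3e at 0 counts in both cKO libraries and in WT replicate 2. Astrocyte markers, of which 5 of 8 lay above WT in both cKO libraries, summed to 236.8 and 519.1 CPM in cKO and 224.6 and 182.7 CPM in WT. Endothelial markers, with 1 of 5 tested above and 1 below WT, summed to 21.6 and 22.5 CPM in cKO and 15.9 and 15.2 CPM in WT, with Cldn5, Flt1 and Esam at 0 counts in cKO replicate 2. Oligodendrocyte markers, with 1 of 5 tested above WT, summed to 190.6 and 130.1 CPM in cKO and 114.7 and 114.3 CPM in WT. The sums of monocyte, neutrophil, lymphocyte, astrocyte and endothelial markers were thus highest in cKO replicate 2. Single genes carried the lymphocyte and endothelial sums there, Cd79a with 6.40 of 7.40 CPM and Pecam1 with 21.6 of 22.5 CPM. Those sums therefore do not show a rise of the list as a whole. The same library had the most Ccl2, Ccl7, Ccl12, Cxcl10 and Cxcl16, and the part of other cells in those levels was not tested.

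**Figure D5:**
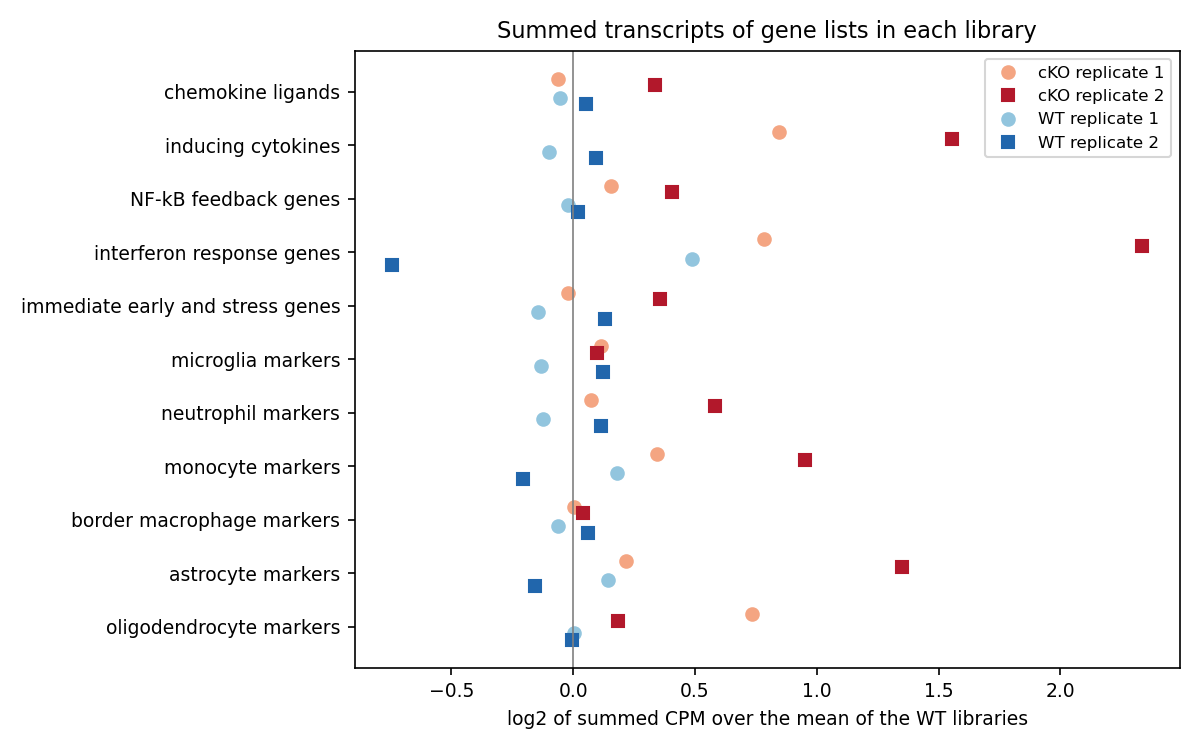
Log2 of the summed CPM of 11 gene lists over the mean of the WT libraries, 1 symbol per library, with cKO drawn above WT in each row. Of the lists drawn, the interferon response genes spread most, between 670.5 and 1966 CPM in cKO and between 232.8 and 545.8 CPM in WT, and the microglial and border macrophage markers spread little.

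For each ligand with enough counts, the genes with the most similar profile over the 4 libraries were looked up among 7705 genes, by the root mean square difference of centred log2 CPM. With 4 libraries many genes have nearly the same profile, so these neighbours are a description only. Fos was nearest to Ccl3, with a difference of 0.0046, and Il18 was second for Ccl2, with 0.047, after Stt3b, with 0.037. Cd72 was nearest to Ccl12, with 0.076, Zfp970 to Ccl7, with 0.074, Cnpy2 to Ccl4, with 0.0115, Elf2 to Ccl6, with 0.016, and Cpd to Cxcl16, with 0.065. Creb5 and then Ifit3b, an interferon-induced gene, were nearest to Cxcl10, with 0.31 and 0.36. Among the ligands themselves, Ccl2 and Ccl7 were the closest pair, with 0.14, and Ccl6 and Cxcl10 the farthest, with 1.96.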

How the data were processed

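FPKM values of 21044 genes were deposited in 1 table, and raw counts in 4 others that each pair 1 cKO with 1 WT library, per the file headers. The count tables also hold the authors' normalized signal, fold change (ratio), log2 fold change and p-values, which were not used. The submitters' processing notes name mm9, HTSeq 0.6.0, TopHat2 2.0.12 and Bowtie2 2.2.3, while 92.1% of 21008 gene positions matched GRCm38 in GENCODE M21, the build used here.

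Counts were joined for 18459 genes, and tables that share a library had 0 differing counts. Missing cells, 4315 of 73836, were filled from FPKM, of which 100.0% were whole within 1e-06 and the highest was 4. Replicates differed by more than sampling noise (chi-square per degree of freedom 107.5 in cKO and 27.8 in WT). edgeR 4.0.16 in R 4.3.3 was used with TMM, filterByExpr, the quasi-likelihood test and Benjamini-Hochberg adjustment at 0.05 over 13086 genes. CPM was scaled by TMM, and standard errors came from the F statistic. Alternatives were DESeq2 1.42.0, limma 3.58.1 on log2(FPKM + 1), + 0.5 and + 0.1, other scalings and filters, a replicate block and leaving out each library. Scripts were tested on simulated data. Exact Poisson intervals (95%) and the floor of 3 counts cover counting error only.

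The ligands and gene lists were chosen with earlier results of these data known. Named genes were the ligands, Lag3 and Cx3cr1, the 4 most abundant further ligands and receptors, the 3 most abundant genes of each inducer list, the 2 most abundant of each marker list with defining markers at 0 counts, and the 2 nearest profiles, and some of these are not reported here; genes named outside this rule, such as Ccr2, Cxcr2, Cxcr3, Cxcr6, Ly6c2 and Cxcl11, were chosen after their values were seen.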

Additional observations from a re-analysis of the deposited data

How the results depend on the processing

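No gene was called by edgeR under the other scalings, filters and the replicate block, or by limma, whereas DESeq2 called 52 of all genes. With 1 library left out, 0 to 748 genes were called, the most without cKO replicate 1. Of the 8 ligands tested, leaving out each library gave 0 to 4 calls, and the other alternatives 0. The median log2 fold change of the ligands was 0.60 to 1.13 under the alternatives that keep all libraries, and -0.04 to 1.63 when each library was left out, lowest without cKO replicate 2. The fitted direction turned without cKO replicate 2 for Ccl3 (-0.032), Ccl4 (-0.19), Cxcl10 (-0.22) and Cxcl16 (-0.039), and without WT replicate 1 for Ccl3 (-0.065), none of which passed edgeR with all libraries. Over the 4 fits that left out a library, the highest values were 0.093 for Ccl3, 0.61 for Ccl4, 4.11 for Cxcl10 and 1.62 for Cxcl16. Direction was kept by Ccl2, Ccl7, Ccl12 and Ccl6 in all 15 alternatives. No label ties equal replicate numbers to a common origin, and their deviations had a correlation of -0.023 over genes. A replicate block called 0 genes and 0 ligands and gave a ligand median of 0.91. Cxcl10 did not pass the FPKM filter, so limma gave it a value only without that filter. Over 15 alternatives, 21 of 207 medians of the other gene lists moved by more than the SD between the cKO libraries. With counts of 0 in 3 of 4 libraries, depth limits Ccl5 and Cxcl2.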

Other observations

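Cxcl11, another interferon-induced ligand of Cxcr3 encoded near Cxcl10, had 0 counts in both cKO libraries and 27 and 9 counts in WT, while Cxcl10 had 23 and 417 counts in cKO and 34 and 15 in WT. Cxcl11 was below the minimum for the test, and a count of 0 allows up to 3 counts in each cKO library. Ccl25, a ligand of Ccr9 known from thymus and gut, had 76 and 0 counts in cKO and 120 and 36 counts in WT. Ccl24, an eosinophil attractant, had 12 and 33 counts in cKO and 55 and 82 counts in WT, below WT in both cKO libraries, and did not pass edgeR. These 3 genes were chosen after their values were seen.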
